A study of Mus musculus with 12 samples.

Results

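The genes described here are 10 enzymes of glycolysis as they were measured in mouse fat, Hk1, Hk2, Gpi1, Pfkl, Aldoa, Tpi1, Pgk1, Eno1, Pkm and Ldha, which were found by their symbols in the table of reads per gene. They are 10 of the 54134 genes listed, and all 10 were among the 15585 genes that passed edgeR's filter on low counts. RNA-seq was done on inguinal white adipose tissue (iWAT) of 12 male C57BL/6J mice. At 8 weeks of age, 6 of them received an adeno-associated virus (AAV) encoding green fluorescent protein (AAV-GFP, named GFP mice in the following) through the tail vein and 6 received the same number of viral genomes encoding Notum (AAV-Notum, named Notum mice). All 12 mice ate a chow diet for 4 weeks and were fasted for 4 h before the fat was taken. The transgene was driven by the liver promoter of thyroxine binding globulin, so that Notum, a secreted enzyme that inactivates Wnt proteins, was to be made in the liver and reach the fat through the blood. The comparison asks whether the enzymes of glucose breakdown in iWAT differed between mice with and without additional hepatic Notum.

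Glycolysis turns glucose into pyruvate in the cytosol. Hexokinases trap glucose as glucose 6-phosphate, phosphofructokinase commits the sugar to the pathway, aldolase splits it into triose phosphates, and pyruvate kinase and lactate dehydrogenase form pyruvate and lactate. In white fat, which takes up glucose after meals through the insulin-regulated transporter GLUT4, the pathway supplies glycerol 3-phosphate for triglyceride, acetyl-CoA for fatty acid synthesis and lactate for export. Many of its genes are known targets of the hypoxia-inducible factor (HIF), whose binding sites often carry the core ACGTG.

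Between 14711113 and 21618860 reads per mouse were counted on genes, and levels are given as CPM, the usual scaling of counts by library size, after TMM normalization. The RNA integrity number was 5.7 to 7.6 in GFP and 6.9 to 7.4 in Notum mice. RNA of GFP mouse S_2012 was isolated 20 days after that of the other mice. The 8 adipocyte markers were present in every mouse, at a mean of 10.1 to 11.3 log2 CPM in GFP and 10.1 to 11.2 in Notum mice. Other tissues were present unevenly. The mean of 15 lymphoid markers ran from 0.0136 to 6.94 log2 CPM in GFP mice, where mice S_2014 and S_2011 were the lowest, and from 5.27 to 7.32 in Notum mice. The mean of 12 skeletal muscle markers, of 15 listed, ran from -0.135 to 5.57 log2 CPM in GFP mice and from -0.622 to 7.84 in Notum mice, where mouse S_2042 was the highest. The mean of 12 hepatocyte markers ran from 1.12 to 8.20 and from 1.31 to 5.91 log2 CPM. Notum itself had 0.0595 to 0.995 CPM in GFP mice, 29.3 and 26.6 CPM in Notum mice S_2032 and S_2041, and 0.457 to 0.905 CPM in the other 4 Notum mice, so its level in fat did not separate the groups. In whole tissue, fewer cells of a type and less RNA per cell cannot be told apart.

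Promoter windows of the 250 bases before each transcription start were taken from RefSeq (GRCm38.p6), which gave 17 windows for the 10 enzymes. The core ACGTG, read on both strands, was found in 6 windows of 5 enzymes, Hk2, Aldoa, Pgk1, Pkm and Ldha, against 16.6% of 32851 windows of all genes. Of these 6 windows, 2 are overlapping windows of Aldoa that hold the same core, so that 1 site is counted in both. The E-box CACGTG, which reads the same on both strands, contains the core on each strand and is known to be bound by MYC, USF and the carbohydrate-responsive factors Mlx and ChREBP, was found in 1 enzyme, Ldha, against 6.02% of all windows. The GC box GGGCGG was found in 10 windows of 8 enzymes, against 32.7%, and these too include overlapping windows of Aldoa and of Eno1. The windows of Hk2, Aldoa, Pgk1 and Ldha are shown because they hold the core and overlap no exon of GENCODE vM21, with each core or E-box in capitals. Hk2 (chr6:82774455-82774704, minus strand) and Pgk1 (chrX:106186850-106187099, plus strand) held 2 cores each. Aldoa (chr7:126799255-126799504, minus strand) held 1. Ldha (chr7:46845554-46845803, plus strand) held 2 E-boxes and a further core. A match is a description of the letters and was not tested as a binding site.
Hk2: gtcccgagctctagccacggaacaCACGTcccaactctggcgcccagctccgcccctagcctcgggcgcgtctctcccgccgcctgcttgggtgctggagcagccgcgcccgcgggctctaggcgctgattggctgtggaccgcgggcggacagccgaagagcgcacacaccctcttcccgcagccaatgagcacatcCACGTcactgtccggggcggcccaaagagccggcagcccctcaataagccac
Aldoa: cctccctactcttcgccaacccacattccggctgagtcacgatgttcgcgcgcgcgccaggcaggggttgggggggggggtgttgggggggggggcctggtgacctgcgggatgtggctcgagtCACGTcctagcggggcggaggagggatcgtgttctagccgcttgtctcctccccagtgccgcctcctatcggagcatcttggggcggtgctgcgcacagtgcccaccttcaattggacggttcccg
Pgk1: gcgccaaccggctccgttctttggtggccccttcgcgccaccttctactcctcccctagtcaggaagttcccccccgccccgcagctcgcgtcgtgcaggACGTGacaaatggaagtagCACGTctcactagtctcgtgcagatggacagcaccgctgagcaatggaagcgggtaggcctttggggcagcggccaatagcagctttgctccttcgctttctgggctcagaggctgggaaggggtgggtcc
Ldha: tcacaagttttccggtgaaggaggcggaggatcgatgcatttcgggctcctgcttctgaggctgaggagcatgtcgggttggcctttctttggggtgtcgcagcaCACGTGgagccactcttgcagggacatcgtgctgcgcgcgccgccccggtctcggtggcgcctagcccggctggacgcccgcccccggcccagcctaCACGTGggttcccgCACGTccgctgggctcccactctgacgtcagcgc

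Of the 10 enzymes, 9 had a higher fitted level in Notum than in GFP mice, against 51.2% of all genes tested. The 9 include Pgk1 at a log2 fold change of 0.01 and Hk1 at 0.10, whose direction turned in some other fits. Many of the enzymes varied together between mice, so the 9 are not separate observations. The median log2 fold change of the 10 was 0.20, against 0.00773 for all genes tested, and the range was -0.01 for Hk2 to 0.51 for Pkm. With adjusted p-values of edgeR's quasi-likelihood test over all genes, 0 of the 10 passed 0.05, where 0.0513% of all genes tested passed, all of them lower in Notum mice. The smallest adjusted p was 0.259. At an unadjusted p under 0.05, 1 enzyme, Pkm, was higher and 0 were lower, against 4.64% and 9.54% of all genes tested. DESeq2 also called 0 of the 10, where it called 0.531% of 15814 genes higher and 2.32% lower at an adjusted p under 0.05. For no enzyme did the groups separate: such a separation was seen in 0.398% of all genes tested upward and 0.693% downward.

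**Figure D1:**
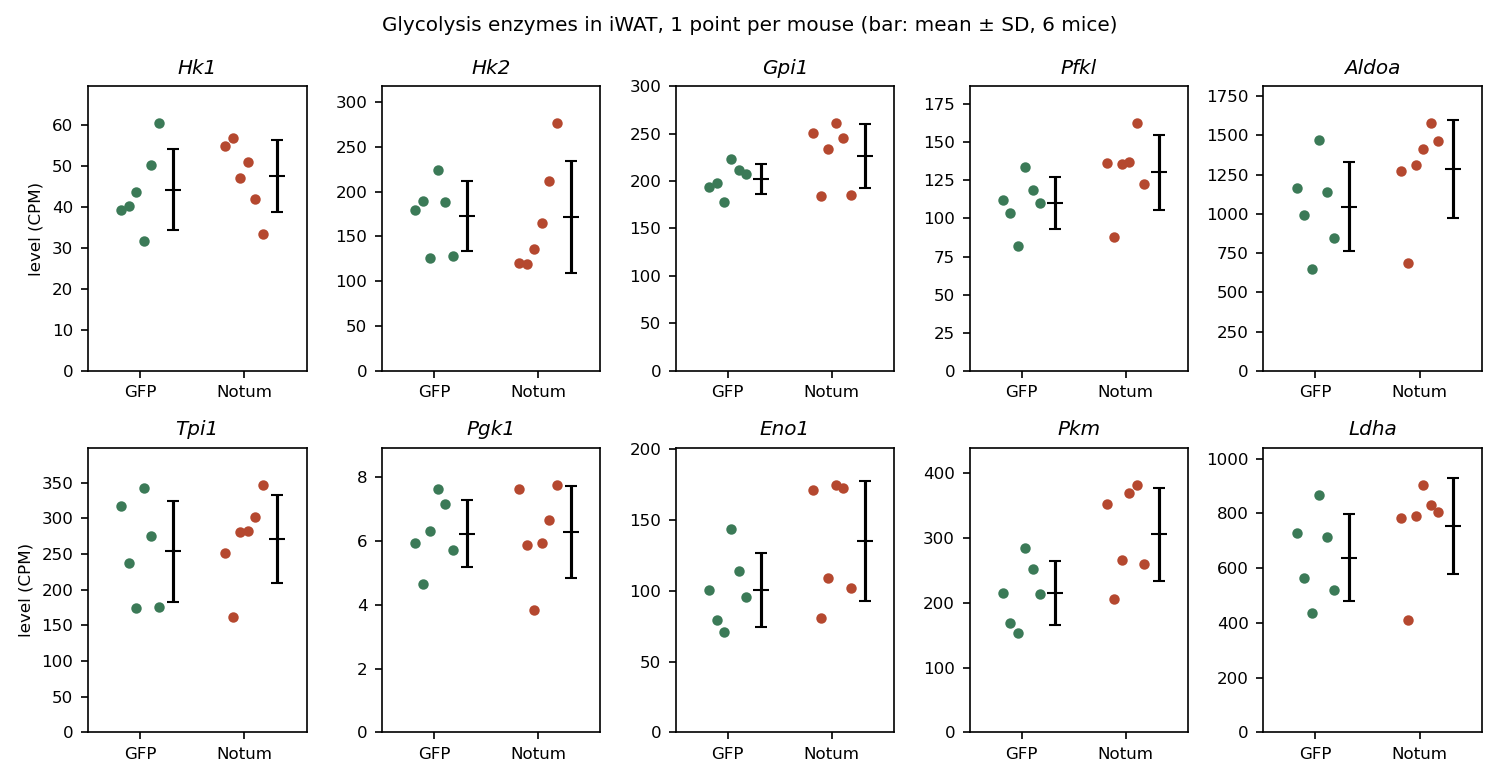
Level of each of the 10 glycolysis enzymes (vertical axis, CPM) in every mouse, with GFP on the left and Notum on the right of each panel and the mean and SD of 6 mice beside the points. Pkm had 3 Notum mice above every GFP mouse and Aldoa and Ldha had 1 Notum mouse, S_2032, far below the other 5, while the groups overlapped in every panel.

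Hexokinases start the pathway. Hk1 (ENSMUSG00000037012, chromosome 10 of GRCm38, 62268855 to 62379908, minus strand), the constitutive hexokinase found in most cells, ranged from 31.8 to 60.4 CPM in GFP mice (median 41.9) and from 33.4 to 56.9 CPM in Notum mice (median 49.0). Its means were 44.2 ± 9.93 and 47.5 ± 8.75 CPM (SD, n = 6), with a log2 fold change of 0.10 with a 95% interval of -0.25 to 0.46. It ran from 0.0247 to 0.21 with each mouse left out, and turned to -0.14 with the score of lymphoid markers as a covariate and to -0.031 without the mice of low lymphoid score. Hk2 (ENSMUSG00000000628, chromosome 6, 82725025 to 82774454, minus strand), the insulin-responsive hexokinase of muscle and fat, ranged from 125.4 to 224 CPM (median 184) and from 118.8 to 276 CPM (median 150.3). Notum mice held both the highest Hk2 level, in mouse S_2042, and the lowest, in mouse S_2032. The log2 fold change of Hk2 was -0.01 (95% interval -0.51 to 0.48), and its direction turned when single mice were left out.

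Gpi1 (ENSMUSG00000036427, chromosome 7, 34201330 to 34230336, minus strand) isomerizes glucose 6-phosphate to fructose 6-phosphate. It ranged from 178 to 223 CPM in GFP mice (median 203) and from 184 to 261 CPM in Notum mice (median 239), with 4 Notum mice above every GFP mouse and the other 2, mice S_2032 and S_2042, below the GFP mean. Its log2 fold change was 0.16 (standard error 0.10, 95% interval -0.06 to 0.39, edgeR adjusted p = 0.457). Pfkl (ENSMUSG00000020277, chromosome 10, 77986947 to 78010083, minus strand), the liver-type subunit of phosphofructokinase, ranged from 82.0 to 133.5 CPM (median 110.8) and from 87.6 to 162 CPM (median 136). It also had 4 Notum mice above every GFP mouse, and 5 above the GFP mean. Its log2 fold change was 0.24 (standard error 0.14, 95% interval -0.07 to 0.56, edgeR adjusted p = 0.430).

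Aldoa (ENSMUSG00000030695, chromosome 7, 126795234 to 126800751, minus strand), the muscle and housekeeping aldolase, had the most reads of the 10. It ranged from 652 to 1472 CPM in GFP mice (median 1069) and from 686 to 1578 CPM in Notum mice (median 1360.0). In Notum mice, 5 lay between 1273 and 1578 CPM and mouse S_2032 lay at 686 CPM. Its means were 1046 ± 284 and 1287 ± 314 CPM (SD, n = 6), and the log2 fold change of 0.30 had a 95% interval of -0.19 to 0.79. Tpi1 (ENSMUSG00000023456, chromosome 6, 124810586 to 124814296, minus strand), which interconverts the triose phosphates, ranged from 175 to 343 CPM (median 257) and from 162 to 347 CPM (median 282). The Tpi1 groups covered nearly the same range, and its log2 fold change was 0.09 (95% interval -0.36 to 0.55). That value was 0.00649 without GFP mouse S_2013, 0.21 without Notum mouse S_2032 and 0.42 with the score of lymphoid markers as a covariate (unadjusted p = 0.0303, adjusted p = 0.487, range of the adjusted p over the alternatives 0.487 to 0.987).

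Pgk1 (ENSMUSG00000062070, chromosome X, 106187100 to 106203699, plus strand), which forms the first ATP of the pathway, was counted at only 58 to 155 reads per mouse. It ranged from 4.64 to 7.63 CPM (median 6.13) in GFP and from 3.84 to 7.77 CPM (median 6.29) in Notum mice, and its log2 fold change was 0.01 (95% interval -0.38 to 0.40). Of the 50-base windows in its transcripts, 53.9% also occur unchanged in other genes, among them 5 pseudogenes, so that its level is uncertain. Gapdh and Pgam1, the enzymes of the steps on either side, are not among the 10 and were counted as low, at 57 to 125 and 70 to 146 reads per mouse. They share 25.1% and 36.2% of their windows, Gapdh with 213 pseudogenes. Gapdh had 4.81 ± 1.27 CPM in GFP and 6.34 ± 0.551 CPM in Notum mice (SD, n = 6), with a log2 fold change of 0.40 (edgeR unadjusted p = 0.0326, adjusted p = 0.312) and all 6 Notum mice above the GFP mean. Pgam1 had a log2 fold change of 0.36 (edgeR unadjusted p = 0.136, adjusted p = 0.451), and one of 0.69 with the score of lymphoid markers as a covariate. How the counting treated reads with several matches is not given in the sources used here, and its part in these low counts was not tested.

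Eno1 (ENSMUSG00000063524, chromosome 4, 150236721 to 150248879, plus strand), the widely expressed enolase, ranged from 70.9 to 143.5 CPM in GFP mice (median 98.2) and from 80.8 to 175 CPM in Notum mice (median 140.3). The Notum mice lay apart, with mice S_2031, S_2034 and S_2041 between 171 and 175 CPM and mice S_2032, S_2033 and S_2042 between 80.8 and 109 CPM. The log2 fold change was 0.42 (standard error 0.23, 95% interval -0.07 to 0.92, edgeR adjusted p = 0.400). Eno1 shares 26.0% of its 50-base windows with other genes.

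Pkm (ENSMUSG00000032294, chromosome 9, 59656368 to 59679375, plus strand), the pyruvate kinase of tissues other than liver and red cells, showed the largest difference of the 10. It ranged from 154 to 285 CPM in GFP mice (median 214) and from 206 to 383 CPM in Notum mice (median 309). Mice S_2031, S_2034 and S_2041, the same 3 Notum mice that were high for Eno1, were above every GFP mouse, and 5 of 6 were above the GFP mean. The means were 215 ± 49.3 and 306 ± 71.8 CPM (SD, n = 6), which is 1.43-fold with a 95% interval of 1.08 to 1.89. The log2 fold change of 0.51 had a standard error of 0.19, and its unadjusted p of 0.0176 became 0.259 after Benjamini-Hochberg adjustment in edgeR's quasi-likelihood test. A two-sided exact permutation test of Pkm alone gave p = 0.0390. The unadjusted p of Pkm stayed between 0.00519 and 0.0433 when each mouse was left out in turn, and the adjusted p between 0.149 and 0.548 over 22 alternatives. Pkm makes the PKM1 and PKM2 forms by alternative splicing, which counts per gene do not separate, and 25.8% of its windows occur in other genes.

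Ldha (ENSMUSG00000063229, chromosome 7, 46841475 to 46855627, plus strand), the lactate dehydrogenase subunit that favours lactate formation, ranged from 435 to 868 CPM in GFP mice (median 638) and from 409 to 905 CPM in Notum mice (median 796). In Notum mice, 5 lay between 783 and 905 CPM and mouse S_2032 lay at 409 CPM, the lowest of all 12. The means were 638 ± 159 and 753 ± 174 CPM (SD, n = 6), with a log2 fold change of 0.24 and a 95% interval of -0.21 to 0.69.

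**Figure D2:**
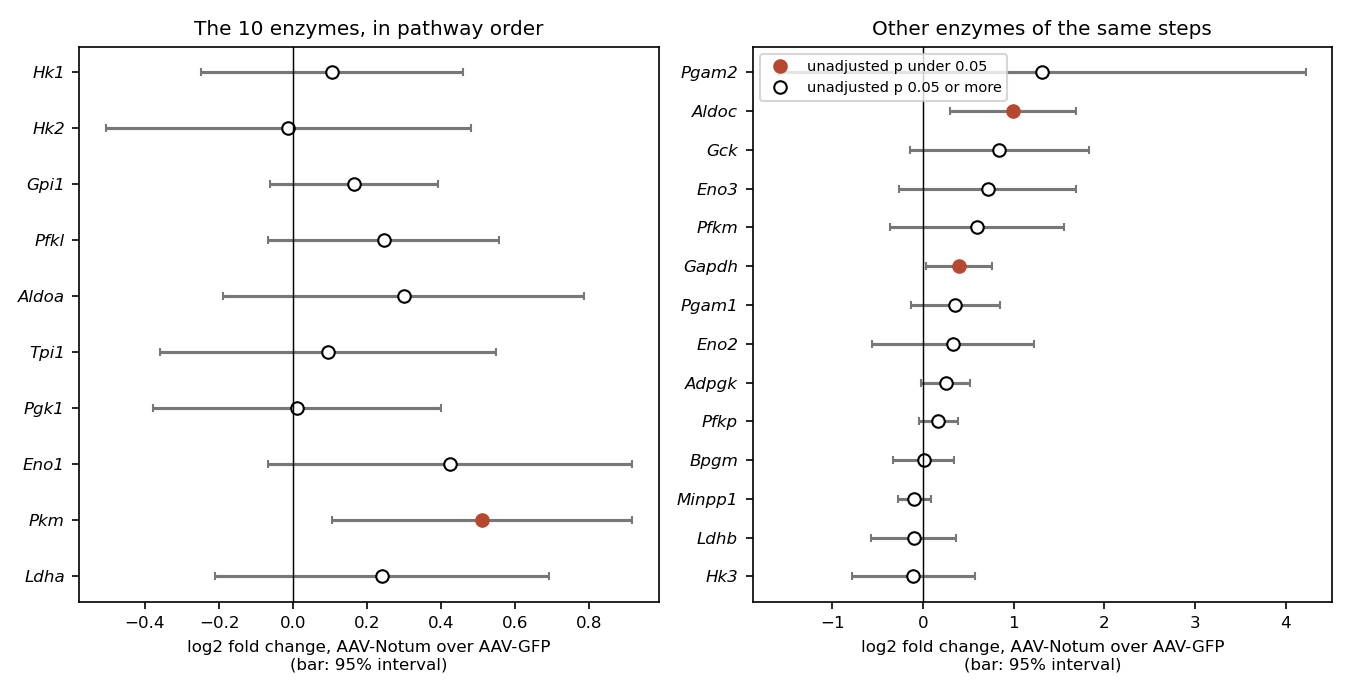
Log2 fold change of Notum over GFP mice (horizontal axis, edgeR fit, bars give the 95% interval) for the 10 glycolysis enzymes and for other enzymes of the same steps. Filled points mark an unadjusted p under 0.05, which Pkm, Aldoc and Gapdh reached; no interval of the 9 remaining enzymes on the left excludes 0.

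These values changed with the mice left out. Without GFP mouse S_2013, the lowest of its group for most of the enzymes, the log2 fold change was 0.19 for Aldoa, 0.15 for Ldha, 0.00649 for Tpi1 and 0.43 for Pkm, and Pkm alone had an unadjusted p under 0.05. Pkm was also alone without Notum mouse S_2034 or S_2041, with log2 fold changes of 0.45 and 0.44. Without Notum mouse S_2032, 6 of the 10 enzymes (Gpi1, Pfkl, Aldoa, Eno1, Pkm and Ldha) were higher at an unadjusted p under 0.05, against 3.78% of 15696 genes, and the log2 fold change of Pkm was 0.60. Without GFP mouse S_2014, 2 enzymes (Eno1 and Pkm) were, against 3.03%, and the same 2 were without both mice of low lymphoid score, S_2011 and S_2014, against 2.16%. With the score of lymphoid markers as a covariate, 6 enzymes (Pfkl, Aldoa, Tpi1, Eno1, Pkm and Ldha) were, against 4.33% of 15585 genes, and Aldoa then had a log2 fold change of 0.59 and Ldha of 0.49. In each of these fits 0 of the 10 passed an adjusted p of 0.05. Across the 10 enzymes, GFP mouse S_2013 was the lowest of its group for 8, GFP mouse S_2014 the highest of its group for 9 and Notum mouse S_2032 the lowest of its group for 8.

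Levels of different genes were compared per kilobase of exon (CPM per kb, GFP mean). The length counts all annotated exons of a gene, which can exceed the length of its main transcript, so the order depends on it. Aldoa was the highest at 359, followed by Ldha at 193, Tpi1 at 92.3, Pkm at 43.0, Gpi1 at 31.3, Hk2 at 28.9, Eno1 at 18.7, Pfkl at 16.5, Hk1 at 5.18 and Pgk1 at 2.78. The order Aldoa, Ldha, Tpi1, Pkm, Gpi1 held in all 12 mice. Hk2 was below Gpi1 in 9 of 12 mice and above Eno1 in 10 of 12, and Eno1 was above Pfkl in 11 of 12, so the order of these neighbours differed between mice. Gapdh and Pgam1, as counted, stood at 1.16 and 2.75, and because the counts of Gapdh, Pgam1 and Pgk1 are uncertain, the place of their steps in this order is too. Eno1 and Pkm share 26.0% and 25.8% of their windows with other genes, and the part of this in their places was not tested.

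Several steps have a second enzyme gene, and ratios within a mouse do not depend on the scaling of the library. Hk2 made up 74.9% to 92.2% of Hk1 plus Hk2 per kilobase, Ldha 84.4% to 91.0% of Ldha plus Ldhb, and Aldoa at least 99.8% of Aldoa plus Aldoc. Pfkl and the muscle-type Pfkm were closer, with Pfkl at 30.7% to 74.9%, and Eno1 at 18.7% to 75.9% of Eno1 plus the muscle enolase Eno3. These shares rest on the length of all annotated exons, 5.379 kb for Eno1 against 1.739 kb for Eno3 and 6.675 kb for Pfkl against 3.34 kb for Pfkm. By reads, Eno1 to Eno3 averaged 4.126 in GFP and 4.035 in Notum mice, and Pfkl to Pfkm 3.708 and 3.964. For both muscle pairs the lowest share was that of Notum mouse S_2042, which had 138 CPM of Pfkm and 143 CPM of Eno3 and the highest skeletal muscle score. Pfkl made up 63.6% to 76.9% of Pfkl plus the platelet-type Pfkp.

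The ratio of Ldha to Ldhb, the subunit that favours lactate use, was 11.4 to 16.6 in GFP and 12.4 to 21.2 in Notum mice. Its mean log2 difference was 0.33 (two-sided exact permutation test, p = 0.0649, adjusted over the 6 ratios p = 0.389). The ratio of Aldoa to Aldoc averaged 1847 in GFP and 933 in Notum mice, a difference of -0.81 on the log2 scale that was within the spread between mice (exact permutation p = 0.132). The ratio of Hk2 to Hk1 had means of 4.19 and 3.95 (exact permutation p = 0.693). The ratios of Pfkl to Pfkm, Pfkl to Pfkp and Eno1 to Eno3 differed by -0.07, 0.07 and -0.07 on the log2 scale (exact permutation p = 0.918, 0.643 and 0.896).

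Most of the enzymes, other than Hk1 and Pgk1, varied together between mice, but Hk2 followed only some of them. Of the 45 pairs among the 10, 37 had a positive Pearson r over the 12 mice, with a median of 0.571, against 50.3% of all pairs of tested genes, whose median r was 0.0058. Hk2 had an r of -0.02 with Gpi1, 0.231 with Eno1, 0.240 with Pkm and 0.428 with Pfkl (adjusted permutation p 0.272 or higher). It had 0.788 with Tpi1, 0.660 with Aldoa and 0.573 with Ldha (adjusted permutation p 0.00661, 0.0407 and 0.0947). Gpi1 with Tpi1 had an r of 0.396 (adjusted permutation p 0.309). The 9 pairs with Pgk1, whose counts are low and uncertain, had an r from -0.242 to 0.369, with adjusted permutation p of 0.360 or higher. Their rho ran from -0.420 with Hk1 to 0.531 with Tpi1 (adjusted permutation p 0.257 and 0.136). Aldoa and Ldha had an r of 0.977 (Spearman rho 0.944, permutation p adjusted over 45 pairs 2.25e-04 for both), and 0.945 without the 2 mice farthest from the median of Aldoa, S_2013 and S_2032. Eno1 and Pkm had an r of 0.968 (rho 0.972, adjusted permutation p 2.25e-04 and 1.5e-04), and 0.947 without mice S_2034 and S_2041. In a set of 6 chosen after the values were seen, Pfkl, Aldoa, Tpi1, Eno1, Pkm and Ldha, all 15 pairs were positive, from 0.571 to 0.977, and they were so within each group. Because the set was chosen for its correlations, this is a description only. Within Notum mice the lowest of the 15 were 0.457 for Tpi1 with Eno1 (exact permutation p = 0.417) and 0.543 for Tpi1 with Pkm (exact permutation p = 0.249). The hexokinases ran against each other, with an r of -0.808 between Hk1 and Hk2 (rho -0.804, adjusted permutation p 0.00528 and 0.00728), -0.694 in GFP and -0.944 in Notum mice. That r was -0.651 without mice S_2014 and S_2042. Of the 9 pairs with Hk1, 2 were positive. CPM are shares of a library, so that genes of 1 library share its composition.

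**Figure D3:**
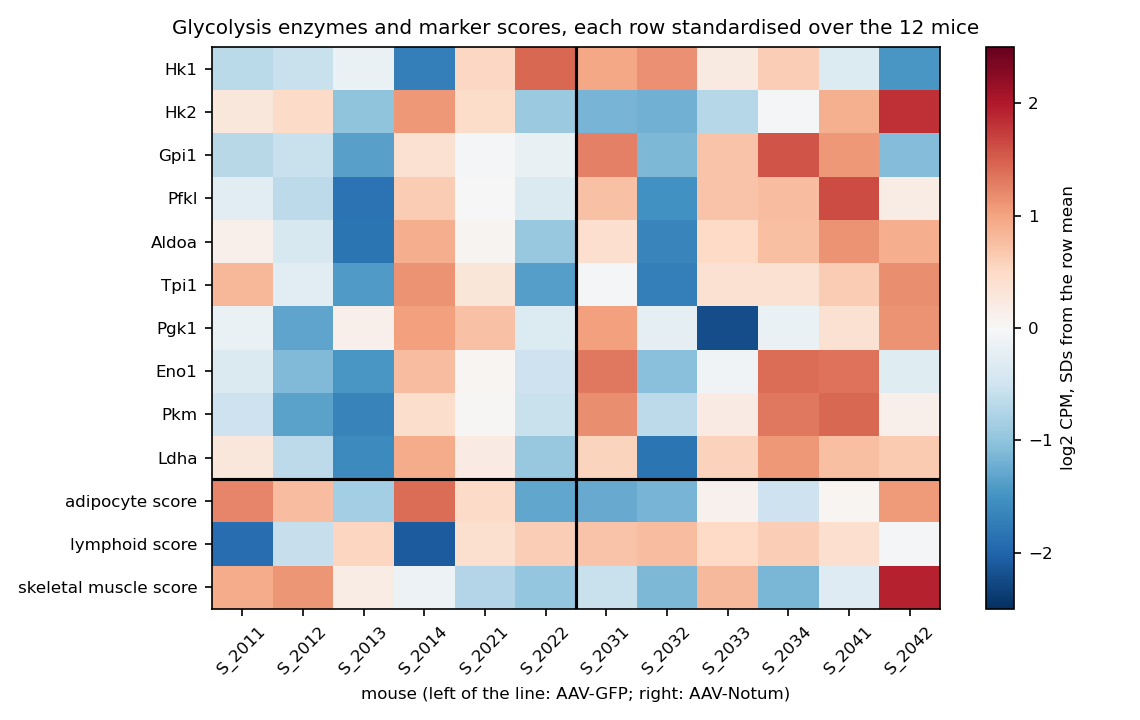
Standardised log2 CPM (colour, in SDs from the mean of the row) of the 10 glycolysis enzymes and of 3 marker scores (rows) in the 12 mice (columns, GFP left of the line and Notum right of it). Mice S_2013 and S_2032 are low and mice S_2014, S_2031, S_2034 and S_2041 high for most enzymes, and Hk1 runs opposite to Hk2.

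Each enzyme was set against the adipocyte, lymphoid and skeletal muscle scores, 30 relations in all, since other cell types of the tissue hold the same enzymes. Hk1 was lower in mice of higher adipocyte score (r = -0.864, rho = -0.902, permutation p adjusted over 30 relations 0.0153 and 0.00255), with an r of -0.794 in GFP and -0.959 in Notum mice and of -0.802 without mice S_2022 and S_2031. Hk2 was higher in them (r = 0.843, rho = 0.804, adjusted permutation p 0.0181 and 0.0171), with an r of 0.941 and 0.872 within the groups and of 0.791 without mice S_2022 and S_2031. Tpi1 was as well (r = 0.787, rho = 0.741, adjusted permutation p 0.0251 and 0.0387), at 0.951 and 0.782 within the groups and 0.812 without those mice. For Eno1, Pkm and Gpi1 the r with the adipocyte score was 0.0258, -0.00627 and -0.134.

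The lymphoid score ran largely opposite to the adipocyte score. Mice S_2014 and S_2011 had the highest adipocyte scores (11.3 and 11.22 log2 CPM) and the lowest lymphoid scores (0.0136 and 0.465). Mice S_2031, S_2032 and S_2022 had the lowest adipocyte and the highest lymphoid scores. Relations of a gene with these scores are thus not separate results. GFP mice S_2011 and S_2014 lay apart from the others in the lymphoid score, and both are in the values within GFP mice given here, which were not computed without them. Hk1 was higher in mice of higher lymphoid score in both groups, with an r of 0.840 in GFP mice (exact permutation p = 0.0250) and 0.988 in Notum mice (exact permutation p = 0.00139). Its r over the 10 mice other than S_2011 and S_2014 was 0.720. Hk2 had an r of -0.734 in GFP (exact permutation p = 0.119) and -0.910 in Notum mice (exact permutation p = 0.0125), and its r over the same 10 mice was -0.651. Across all 12 mice Hk1 had an r of 0.738 and a rho of 0.909 (adjusted permutation p 0.0400 and 0.00255). Hk2 had an r of -0.527, which did not pass (adjusted permutation p 0.277), and a rho of -0.839 (adjusted permutation p 0.0112). For the skeletal muscle score, Hk1 had an r of -0.718 and a rho of -0.783 (adjusted permutation p 0.0561 and 0.0250), and an r of -0.597 without mice S_2042 and S_2012. The part of the cell mixture in the comparison between viruses was not tested beyond the covariate fits.

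**Figure D4:**
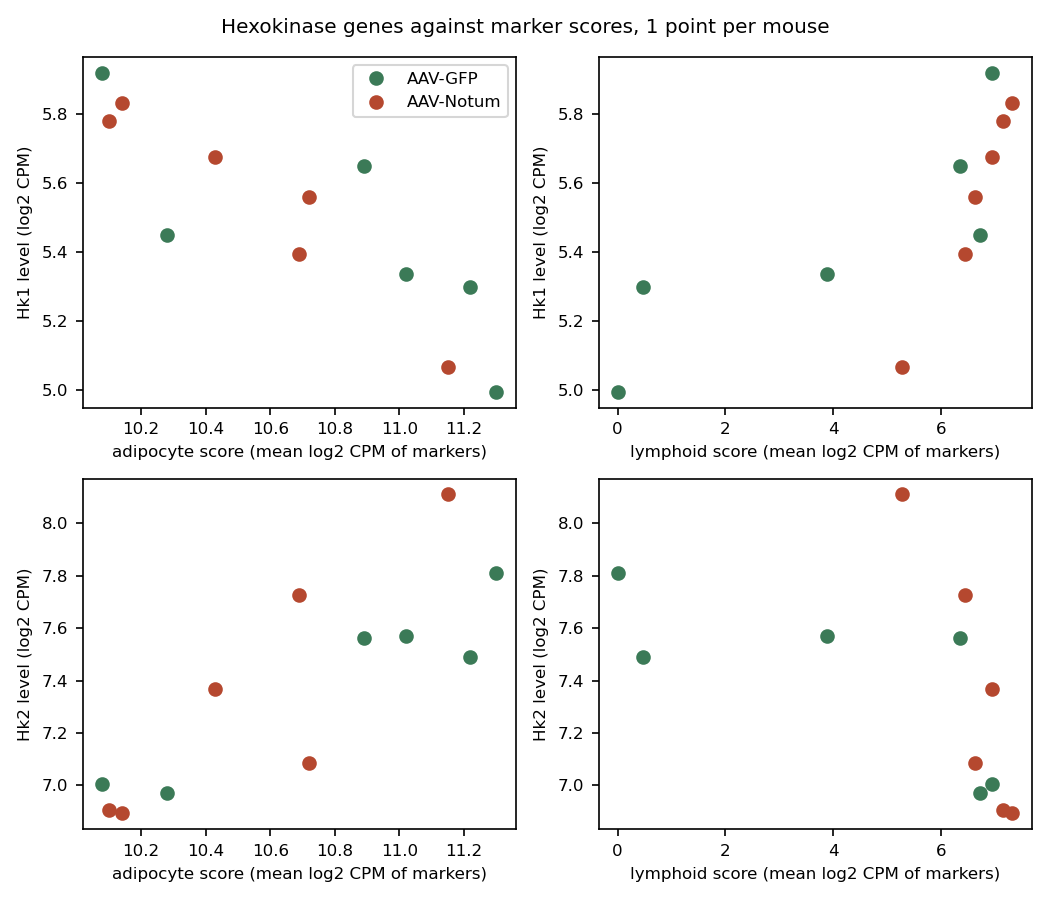
Level of Hk1 (upper panels) and Hk2 (lower panels) in log2 CPM against the adipocyte score (left) and the lymphoid score (right), each the mean log2 CPM of its markers, with 1 point per mouse coloured by virus. Hk1 is lower and Hk2 higher in mice of high adipocyte score, in both GFP and Notum mice, and 2 GFP mice have lymphoid scores near 0.

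The 5 other genes whose level followed the mean standardised level of the 10 enzymes most closely over the 12 mice were Acss2 (r = 0.973), Me1 (r = 0.960), Pdha1 (r = 0.957), Acly (r = 0.956) and Pygl (r = 0.950), given as a description without a test. Acss2 makes acetyl-CoA from acetate, Acly makes it from citrate, malic enzyme Me1 supplies NADPH, Pdha1 is a subunit of pyruvate dehydrogenase and Pygl is the liver-type glycogen phosphorylase. Their log2 fold changes between the groups were 0.68, 1.04, 0.46, 1.11 and 0.44, with unadjusted p of 0.116, 0.0153, 0.0609, 0.0562 and 0.107 from edgeR. Over the alternatives that of Pdha1 ran from 0.35 to 0.70 and that of Pygl from 0.32 to 0.77, each highest with the lymphoid score as a covariate.

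Around the 10 enzymes, 113 further genes of glucose metabolism and its control were listed and 107 were tested. At an unadjusted p under 0.05, 9 were higher and 13 lower in Notum mice, which is 20.6% against 14.2% of all genes tested, and 0 passed an adjusted p of 0.05 with edgeR. DESeq2 called 2 higher, Pdk1 and Mlx, and 6 lower, H6pd, Arnt, Hif3a, Ndrg1, P4ha1 and P4ha2, at an adjusted p under 0.05, against 0.531% higher and 2.32% lower of all genes it tested. The counts at an unadjusted p under 0.05 became 27 higher and 9 lower with the lymphoid score as a covariate, against 4.33% and 4.9% of all genes. They were 20 and 9 without mouse S_2032, against 3.78% and 7.07%, and 15 and 10 without mouse S_2014, against 3.03% and 6.79%. Without both mice of low lymphoid score they were 11 and 9, against 2.16% and 4.95%. Where a range over the alternatives is given for Aldoc, Slc2a10, Pdp1, Rpia, H6pd, Gaa, Arnt and Epas1, the value nearest 0 is the one with the lymphoid score as a covariate.

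**Figure D5:**
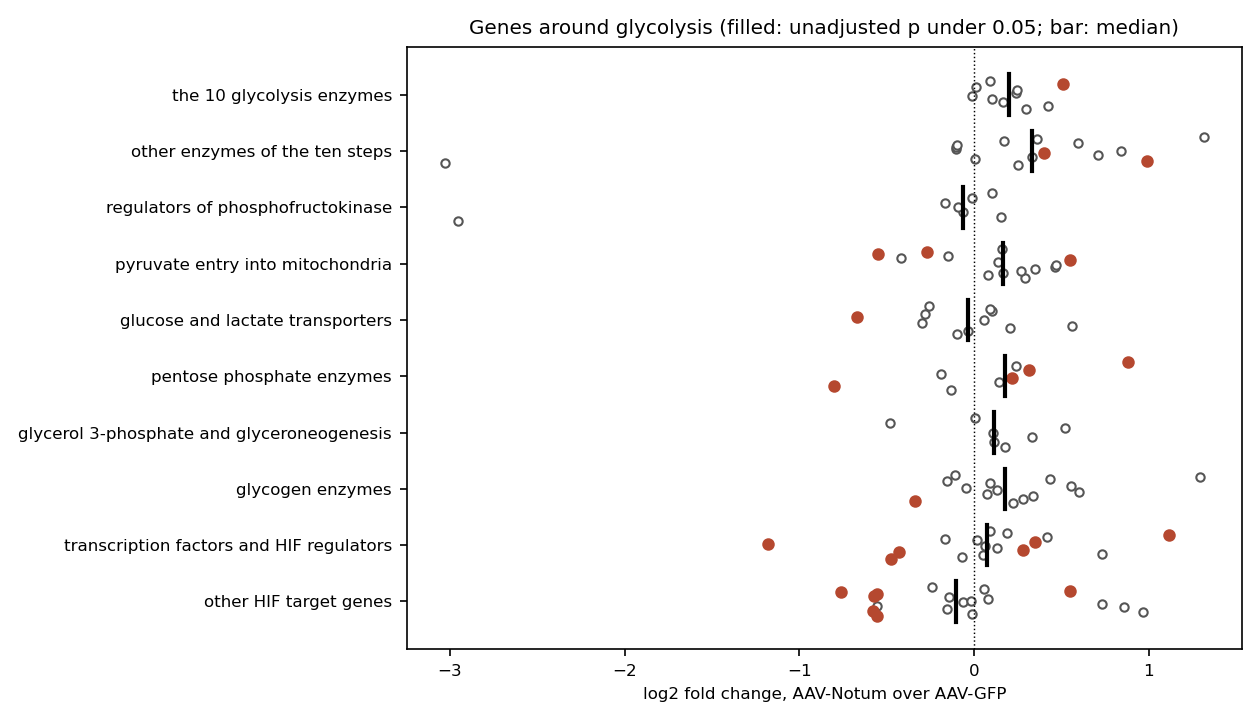
Log2 fold change of Notum over GFP mice (horizontal axis) for each tested gene of the 10 glycolysis enzymes and of 9 lists of related genes (rows), filled at an unadjusted p under 0.05, with the list's median as a bar. The 10 enzymes have a median of 0.20 and other HIF target genes one of -0.11, with 5 lower genes and Pdk1 higher.

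Of 21 other enzymes of the glycolytic steps, 15 were tested and 2 were higher at an unadjusted p under 0.05, Gapdh and Aldoc, with 0 lower, against 4.64% and 9.54% of all genes tested. Aldoc, the brain-type aldolase, had 0.748 ± 0.358 and 1.495 ± 0.401 CPM (SD, n = 6), with a log2 fold change of 0.99 (edgeR unadjusted p = 0.00910, adjusted p = 0.216), and rested on 6 to 39 reads per mouse. Over the alternatives that log2 fold change of Aldoc ran from 0.54 to 1.14. The median of the list was 0.33. Of 7 regulators of phosphofructokinase, 0 were past an unadjusted p of 0.05 by edgeR in either direction (the smallest adjusted p was 0.398).

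Of 11 glucose and lactate transporters, 1 was past an unadjusted p of 0.05, against 14.2% of all genes tested. Slc2a10, which encodes the transporter GLUT10, had 3.78 ± 0.908 CPM in GFP and 2.38 ± 0.591 CPM in Notum mice (SD, n = 6), with a log2 fold change of -0.67 (edgeR unadjusted p = 0.00690, adjusted p = 0.201), with each of the 6 Notum mice below the GFP mean. Over the alternatives that log2 fold change of Slc2a10 ran from -0.79 to -0.395 and its adjusted p from 0.0590 to 0.680. The median of the list was -0.03.

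Of 14 genes for the entry of pyruvate into mitochondria, 1 was higher and 2 were lower at an unadjusted p under 0.05, against 4.64% and 9.54% of all genes tested. Pdk1, a kinase that switches off pyruvate dehydrogenase, ranged from 68.7 to 92.9 CPM in GFP mice (median 87.2) and from 104.6 to 142 CPM in Notum mice (median 125). The groups did not overlap, all 6 Notum mice being the higher. Its log2 fold change was 0.55 (standard error 0.09, edgeR adjusted p = 0.0686, exact permutation p = 0.00216, the smallest that 6 mice against 6 allow), and its adjusted p ran from 7.33e-05 with DESeq2 to 0.301 over 22 alternatives. Pdk4, the kinase of this family known to rise in fasting, had 124.5 ± 26.0 and 84.9 ± 32.02 CPM (SD, n = 6), with a log2 fold change of -0.55 (edgeR adjusted p = 0.312). Pdp1, the phosphatase that switches the complex on, had a log2 fold change of -0.27 (edgeR unadjusted p = 0.0483, adjusted p = 0.347), which ran from -0.34 to -0.153 over the alternatives (adjusted p 0.119 to 0.833). Pdk1 and Pdk4 were thus past the unadjusted level in opposite directions. The other kinases of the family, Pdk2 and Pdk3, were lower without passing it, with log2 fold changes of -0.42 and -0.15 (edgeR unadjusted p = 0.0501 and 0.436).

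Of 8 pentose phosphate enzymes, which take glucose 6-phosphate from glycolysis, 3 were higher and 1 was lower at an unadjusted p under 0.05, against 4.64% and 9.54% of all genes tested. Tkt, the transketolase that returns sugars to glycolysis, ranged from 449 to 1681 CPM in GFP mice (median 908) and from 693 to 2441 CPM in Notum mice (median 1996), a log2 fold change of 0.88 (edgeR adjusted p = 0.292). Mouse S_2032 was again the lowest Notum mouse. Rpia and Pgls had log2 fold changes of 0.31 and 0.22 (edgeR adjusted p = 0.224 and 0.245), and that of Rpia ran from 0.159 to 0.36 over the alternatives (adjusted p 0.105 to 0.710). H6pd, which oxidizes glucose 6-phosphate in the endoplasmic reticulum, had 459 ± 148 and 263 ± 48.2 CPM (SD, n = 6), with a log2 fold change of -0.80 (edgeR adjusted p = 0.152), with 4 Notum mice below every GFP mouse. Its adjusted p ran from 0.0179 to 0.587 over the alternatives, and its log2 fold change from -0.92 to -0.38.

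Of 7 genes of glycerol 3-phosphate and glyceroneogenesis, 0 were past an unadjusted p of 0.05 by edgeR (the smallest adjusted p was 0.367). Of 14 glycogen enzymes, 1 was, against 14.2% of all genes tested: Gaa, the lysosomal glucosidase, with a log2 fold change of -0.34 (edgeR adjusted p = 0.324), which ran from -0.41 to -0.0943 over the alternatives.

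Of 16 transcription factors and HIF regulators, 3 were higher and 3 lower at an unadjusted p under 0.05, against 4.64% and 9.54% of all genes tested. The partner of the HIF alpha subunits, Arnt, had 119.9 ± 25.3 CPM in GFP and 86.3 ± 7.30 CPM in Notum mice (SD, n = 6), with a log2 fold change of -0.47 (edgeR adjusted p = 0.154), with 5 Notum mice below every GFP mouse. The alpha subunit Epas1 had a log2 fold change of -0.43 (edgeR adjusted p = 0.293). Hif3a was lower in every Notum mouse (1.17 to 1.78 CPM) than in every GFP mouse (2.14 to 8.81 CPM), with a log2 fold change of -1.18 (edgeR adjusted p = 0.179). Mlx, the partner of ChREBP, had a log2 fold change of 0.35 (edgeR adjusted p = 0.140) with 5 Notum mice above every GFP mouse. Mycn had a log2 fold change of 1.11 on 2 to 15 reads per mouse (edgeR adjusted p = 0.140), and the nuclear receptor Esrra one of 0.28 (edgeR adjusted p = 0.208). Over the alternatives the log2 fold change ran from -0.535 to -0.298 for Arnt, from -0.515 to -0.172 for Epas1 and from -1.44 to -0.67 for Hif3a, whose value nearest 0 came without GFP mouse S_2021.

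Of 18 other HIF target genes, 5 were lower and 1, Pdk1, was higher at an unadjusted p under 0.05, against 9.54% and 4.64% of all genes tested. The collagen prolyl hydroxylase subunits P4ha1 and P4ha2 had log2 fold changes of -0.56 and -0.76 (edgeR adjusted p = 0.151 and 0.152). P4ha1 had 54.4 ± 11.8 CPM in GFP and 37.0 ± 5.56 CPM in Notum mice (SD, n = 6), with 5 Notum mice below every GFP mouse. Bnip3, a mitophagy receptor, Ndrg1 and the peptide gene Adm had log2 fold changes of -0.58, -0.57 and -0.55 (edgeR adjusted p = 0.236, 0.179 and 0.212). With the score of lymphoid markers as a covariate the log2 fold change was -0.49 for P4ha2, -0.30 for Bnip3 and -0.31 for Ndrg1. The marker lists had medians on both sides of 0. Of 8 progenitor and fibroblast markers 4 were lower at an unadjusted p under 0.05 (median log2 fold change -0.36), of 7 endothelial markers 6 had a log2 fold change below 0 (1 at an unadjusted p under 0.05, median -0.23), and of 8 adipocyte markers 7 did (0 at an unadjusted p under 0.05 by edgeR, median -0.26). The median was also below 0 for hepatocyte (-2.74, 11 of 12 below 0, 2 of them at an unadjusted p under 0.05), erythroid (-0.36, 6 of 6), macrophage (-0.0927, 7 of 12, 2 of them at that level) and epithelial markers (-0.0109, 2 of 3). It was above 0 for skeletal muscle (1.36, 12 of 12 above 0), lymphoid (0.99, 15 of 15) and brown and beige adipocyte markers (0.50, 6 of 8, 1 of them at that level). Single mice weigh on these medians. The median skeletal muscle score was lower in Notum (1.31 log2 CPM) than in GFP mice (2.61), while Notum mouse S_2042 had 7.84. GFP mice S_2014 and S_2011 had lymphoid scores of 0.0136 and 0.465, and GFP mouse S_2013 had a hepatocyte score of 8.20. By edgeR, 0 of the erythroid, epithelial, skeletal muscle and lymphoid markers were past an unadjusted p of 0.05. The mean level of the progenitor list was 7.08 to 8.09 log2 CPM in GFP and 7.36 to 7.73 in Notum mice, and the part of these lists in the lower HIF targets was not tested beyond the covariate fits. The 5 glycolysis enzymes with ACGTG in a promoter window, Hk2, Aldoa, Pgk1, Pkm and Ldha, had log2 fold changes of -0.01, 0.30, 0.01, 0.51 and 0.24. The 5 without ACGTG, Hk1, Gpi1, Pfkl, Tpi1 and Eno1, had 0.10, 0.16, 0.24, 0.09 and 0.42. Other forms of the HIF site were not searched for, so the 5 without ACGTG may hold them.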

How the data were processed

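iWAT RNA of 12 mice (6 AAV-GFP, 6 AAV-Notum, grouped by their labels) was sequenced once per mouse. TruSeq libraries were read single-end on a HiSeq4000. The submitters' processing notes name mm10, STAR 2.3.1, FastQC and DESeq2. The authors deposited raw counts of reads per gene, and a second table of log2 values (reads over the size factor of the mouse, plus 1, on a log2 scale). The counting program, annotation and strand setting are not given in the sources used here. Aldoa, Hk1, Gpi1, Tpi1 and Pkm overlap exons of another gene.

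Counts were fitted with edgeR 4.0.16 (R 4.3.3): filterByExpr (minimum count 10, minimum total 15), TMM, glmQLFit and a two-sided quasi-likelihood test, with Benjamini-Hochberg adjustment over 15585 genes. The model had no covariates. Log2 CPM carry a prior count of 2, and a marker score is the mean log2 CPM of a marker list. Exact permutation tests covered all 924 assignments of 12 mice to groups of 6. Permutation p-values of correlations used 100000 resamples. Replicates are separate mice. The fits were tested on simulated data. Positions, exon lengths and shared 50-base windows came from GENCODE vM21 (GRCm38), in which 54069 of the 54134 genes were found.

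The members and gene lists were chosen with earlier results of these data known. Named genes are the 10 enzymes, the genes of the ratios, Gapdh, Pgam1, Pdk2, Pdk3 and the 5 genes most alike over the mice. Genes of the marker lists are counted and not named. From the lists of glucose metabolism and its control, every gene with an unadjusted p under 0.05 is named. Of the 15 other tested enzymes of the glycolytic steps, 1 that was not past that level is not reported by name here. Alternatives were DESeq2 1.42.0, limma 3.58.1 (voom, and the log2 table), RLE size factors, 2 other count filters, 3 covariates and each mouse left out. Leaving out both AAV-GFP mice with a lymphoid score under 2 was added after seeing the data. Total counts of 14711113 to 21618860 per mouse limit genes of few reads, such as Pgk1. Python 3.11.15 with matplotlib 3.10.9 drew the figures.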

Additional observations from a re-analysis of the deposited data

Results flagged for a closer look

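In 2 of the 10 enzymes, AAV-Notum mouse S_2032 lay far below the other 5 mice of its group. Its Aldoa level was 686.3 CPM, against 1273 to 1578 CPM in the others, and its Ldha level was 408.8 CPM, against 783 to 905 CPM. The gap to the nearest mouse was 0.658 and 0.756 of the group's range, above the critical value of Dixon's test for 6 mice. The log2 ratio of Pfkl to Pfkm in AAV-Notum mouse S_2042 was -0.17, against 1.67 to 2.57 in the other 5 mice, with a gap of 0.672 of the range. That mouse also had the highest skeletal muscle score, 7.84 log2 CPM. In all, 3 of 32 groups of 6 mice were past the critical value, where chance gives about 1 in 20, or 1.6 groups. Causes were not tested.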

How the results depend on the processing

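Under all 22 alternatives 0 of the 10 enzymes passed an adjusted p of 0.05, and the log2 fold changes of Gpi1, Pfkl, Aldoa, Tpi1, Eno1, Pkm and Ldha stayed above 0. The count of enzymes higher at an unadjusted p under 0.05 was 1 and became 6 with the lymphoid score as a covariate and 2 without the mice of low lymphoid score; leaving out each mouse in turn, it ran from 1 to 6, with 6 without mouse S_2032 and 2 without mouse S_2014. The log2 fold change of Hk1 turned to -0.14 with the lymphoid score and -0.031 without the mice of low lymphoid score. That of Hk2 turned to 0.00164 with at least 10 counts in every mouse, 0.0396 with the RNA integrity number, 0.25 with the lymphoid score and 0.11 without the mice of low lymphoid score, and ran from -0.20 to 0.0761 with each mouse left out. That of Pgk1 turned to -0.00553 with limma-voom and ran from -0.0609 to 0.12 with each mouse left out. The causes were not tested.

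Of the other pathway genes, those past an adjusted p of 0.05 went from 0 higher and 0 lower to 2 and 6 with DESeq2 and to 1 and 1, Pdk1 and P4ha1, with the skeletal muscle score. With each mouse left out they ran from 0 to 1 higher and from 0 to 2 lower (Pdk1, and H6pd and Ndrg1, without mouse S_2022). At an unadjusted p under 0.05, 9 were higher and 13 lower, which became 27 and 9 with the lymphoid score (4.33% and 4.9% of all genes). With each mouse left out they ran from 7 to 20 higher (20 without mouse S_2032, against 3.78% of all genes, and 15 without mouse S_2014, against 3.03%) and from 9 to 16 lower. With each mouse left out, the log2 ratio difference ran from -0.41 to 0.00772 for Hk2 to Hk1, from -0.23 to 0.32 for Pfkl to Pfkm, from -0.31 to 0.36 for Eno1 to Eno3 and from 0.27 to 0.42 for Ldha to Ldhb, whose unadjusted exact permutation p ran from 0.0238 to 0.123. No paired analysis was possible because the mice of both groups share no replicate numbers.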
